A study of Caenorhabditis elegans with 2 samples.

Results

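The small nuclear RNA (snRNA) genes of Caenorhabditis elegans were examined in chromatin immunoprecipitation sequencing (ChIP-seq) of the nuclear hormone receptor NHR-232. The set comprised every nuclear gene of biotype snRNA in the Ensembl annotation of the WBcel235 assembly, 129 of 46890 nuclear genes. By name, 30 were spliced leader genes (sls-), 12 of them sls-1 and 18 sls-2, and 99 were other snRNA genes. A gene was counted as near a summit, the point of highest signal in a deposited region, when that point lay in the gene or within 200 bp of it.

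Both samples came from strain OP489, whose genotype is unc-119(tm4063) III with the integrated transgene wgIs489. This transgene adds GFP and FLAG to the C-terminus of NHR-232. Whole hermaphrodite late embryos were collected 5 hours after synchronisation by egg bleaching, and their chromatin was sonicated and recovered with an antibody to GFP. The labels' antibody field names the receptor itself. The 2 samples were biological replicates of this 1 group, so no condition was compared and no test across samples was possible. The control experiment named in the labels was not analysed here.

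Spliceosomal snRNAs (U1, U2, U4, U5 and U6) form the catalytic and recognition parts of the spliceosome, which removes introns. Nematodes also join a short leader, donated by a spliced leader RNA, to the front of many messenger RNAs: SL1 is given to most such transcripts and SL2 mainly to the downstream genes of operons. SmY RNAs, encoded by the smy genes, are nematode snRNAs linked to that reaction. U6 is made by RNA polymerase III from a promoter with a TATA box, and the other snRNAs and the SL RNAs are made by RNA polymerase II. Both kinds of promoter carry a proximal sequence element that is bound by the SNAPc complex.

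The annotation gave no U-type to any gene, so the other snRNA genes were grouped by sequence at 80% identity, and each group is called by 1 of its genes. These groups were R07E5.16 (23 genes), C47F8.9 (19), sup-6 (13), F07C6.5 (12) and T11F9.15 (5), beside 10 smy genes and 17 genes in no group. The sequences below show what sets some of the families apart, read from the RefSeq genome of WBcel235 (ce11). Capitals mark the 22-base leader in the first 3 genes, ACTTACCTG in sup-6, and AATTTTTG or ATTTTTGG, the letters of the site that binds Sm proteins, wherever they occur in the last 2.
sls-1.10 (chrV:17120694-17120791, minus strand): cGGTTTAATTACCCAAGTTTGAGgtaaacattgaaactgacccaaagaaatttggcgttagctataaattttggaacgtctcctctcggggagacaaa
sls-2.2 (chrII:5543598-5543707, plus strand): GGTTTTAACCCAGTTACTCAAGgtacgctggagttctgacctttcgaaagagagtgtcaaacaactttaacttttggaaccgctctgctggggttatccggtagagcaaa
F20D1.21 (chrX:14966804-14966900, plus strand): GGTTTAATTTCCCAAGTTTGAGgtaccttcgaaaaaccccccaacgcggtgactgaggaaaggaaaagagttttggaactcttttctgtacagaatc
sup-6 (chrII:12944803-12944967, minus strand): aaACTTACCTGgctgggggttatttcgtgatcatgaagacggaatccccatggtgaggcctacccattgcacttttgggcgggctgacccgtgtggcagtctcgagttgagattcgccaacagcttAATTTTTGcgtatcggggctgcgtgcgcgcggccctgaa
F11A5.14 (chrV:16225701-16225887, minus strand): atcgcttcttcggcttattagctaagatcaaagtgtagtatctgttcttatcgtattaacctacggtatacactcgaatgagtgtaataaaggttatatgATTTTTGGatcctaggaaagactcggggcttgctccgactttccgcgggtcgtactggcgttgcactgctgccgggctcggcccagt
The leader was found intact in 10 of 12 sls-1 genes. The other two annotated sls-1 genes, of 68 bases, do not hold it. The leader was placed by the letters GGT at the start of the gene, which all 18 sls-2 genes had. Of these genes, 4 had the leader of sls-2.2 without a substitution. The others differed from it by up to 8 substitutions, as at sls-2.10 and sls-2.11. F20D1.21, which is not named as a spliced leader gene, began with the sls-1 leader but for A10T, counted from the leader's first base. So did F35B3.10, another ungrouped gene, but for T9A. ACTTACCTG, known from the 5′ end of U1 RNA, was in 12 of 13 genes of the sup-6 group and in no other member. sup-6 and its relative sup-39 were found genetically as splicing suppressors with altered U1 RNA. GTAGTA, known from the branch point pairing region of U2 RNA, was in 18 of 19 genes of the C47F8.9 group and in 1 ungrouped gene. ATTTTTGG was in all 19 genes of that group, and AATTTTTG was in 50 members in all. These matches are letters only and assign no U-type.

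The 100 bp before the annotated 5′ ends were searched for shared letters on the strand of the gene. CGGAACCC was the 8-mer shared by the most distinct upstream sequences. CGGTACAC was the most frequent among the upstream sequences without CGGAACCC, once 8-mers that share a run of letters with CGGAACCC were left out. The choice of CGGTACAC thus favours genes without CGGAACCC. Both 8-mers are capitalised below together with TATATAA, which was added after the sequences were seen. The genes shown are 7 of the 10 with a summit in the strictest region list, which is described after them, and F07C6.5 and F08G2.11 from groups that have none there.
sls-2.2 (chrII:5543498-5543597, plus strand): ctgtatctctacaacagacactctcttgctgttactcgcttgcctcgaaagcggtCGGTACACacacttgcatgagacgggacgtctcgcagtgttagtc
sls-2.1 (chrII:5844765-5844864, plus strand): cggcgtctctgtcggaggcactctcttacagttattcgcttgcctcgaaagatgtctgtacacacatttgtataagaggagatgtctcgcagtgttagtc
sls-2.8 (chrIII:12250365-12250464, plus strand): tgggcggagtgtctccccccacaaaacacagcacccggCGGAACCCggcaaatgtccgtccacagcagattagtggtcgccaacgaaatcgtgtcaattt
W05B2.8 (chrIII:10989579-10989678, plus strand): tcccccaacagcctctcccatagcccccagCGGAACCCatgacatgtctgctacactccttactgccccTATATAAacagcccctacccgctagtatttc
F54D8.7 (chrIII:5080899-5080998, minus strand): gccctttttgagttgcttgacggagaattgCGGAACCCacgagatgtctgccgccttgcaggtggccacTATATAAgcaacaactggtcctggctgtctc
R07E5.16 (chrIII:4414085-4414184, plus strand): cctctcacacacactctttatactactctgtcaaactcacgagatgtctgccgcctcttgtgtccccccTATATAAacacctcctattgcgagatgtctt
sup-6 (chrII:12944968-12945067, minus strand): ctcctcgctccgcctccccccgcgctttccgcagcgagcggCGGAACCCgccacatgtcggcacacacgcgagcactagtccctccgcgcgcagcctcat
F07C6.5 (chrIV:12795484-12795583, plus strand): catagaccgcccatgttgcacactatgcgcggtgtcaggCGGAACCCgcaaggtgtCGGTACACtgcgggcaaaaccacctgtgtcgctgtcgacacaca
F08G2.11 (chrII:13852687-13852786, plus strand): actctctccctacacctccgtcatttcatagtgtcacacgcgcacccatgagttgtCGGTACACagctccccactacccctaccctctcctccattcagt
CGGAACCC occurred upstream of 31 of 129 members (24.0%), against 67 of 46890 nuclear genes (0.143%). Its median position was -61 bp from the 5′ end (quartiles -62 and -59). It was upstream of 8 sup-6 group, 6 F07C6.5 group, 5 sls-2, 5 smy, 5 R07E5.16 group and 2 T11F9.15 group genes, and of no C47F8.9 group gene. CGGTACAC occurred upstream of 21 members (16.3%, against 0.0725% of nuclear genes), at a median of -44 bp. Of these, 13 were C47F8.9 group genes and 5 were sls-2 genes. Both 8-mers were chosen for being frequent upstream of the members, and the nuclear genes include the members. Their excess over all nuclear genes is thus in part set by that choice and is a description only. TATATAA occurred upstream of 18 members (14.0%, against 2.43%), at a median of -30.5 bp, and 15 of these were R07E5.16 group genes. The 3 motifs do not overlap in the sequences shown, and F07C6.5 holds both 8-mers.

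NHR-232 regions were found at a few snRNA genes. The strictest list holds regions kept by the irreproducible discovery rate (IDR), a measure of how alike replicates rank them, and in it 10 of the 129 genes had a summit (7.75%, 95% Wilson interval 4.26 to 13.7, counting error only). The share was 1.79% over all nuclear genes and 1.98% over other nuclear genes of 200 bp or less. It was 33.0% of 612 transfer RNA (tRNA) genes and 15.0% of 346 small nucleolar RNA (snoRNA) genes. The shares over all nuclear genes and over the short ones are lowered by 15363 Piwi-interacting RNA (piRNA) genes, of which 0.0195% had an IDR summit. In the candidate list made from the pooled replicates, 43 members had a summit (33.3%, interval 25.8 to 41.8), against 25.6% of all nuclear genes and 11.2% of the other short ones. Replicate 1 alone gave 40 members (31.0%, against 25.0% of all nuclear genes) and replicate 2 gave 42 (32.6%, against 26.8%). In total, 52 members had a summit in at least 1 of the 4 lists, and 31 had one in both replicate lists. The matching shares of all nuclear genes were not computed for these counts. The pooled share thus stood between that of all nuclear genes and that of snoRNA genes, which was 39.3%. The pooled shares of all nuclear genes and of the short ones are likewise lowered by the piRNA genes, of which 2.02% had a pooled summit. Shares without the piRNA genes were not computed.

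Membership of the IDR list was divided between families. The spliced leader genes contributed 5 of 30 (16.7%, interval 7.34 to 33.6), and all 5 were sls-2 genes (5 of 18, 27.8%, interval 12.5 to 50.9). The R07E5.16 group contributed 4 of 23 (17.4%, interval 6.98 to 37.1) and the sup-6 group 1 of 13 (7.69%). No IDR summit was near the 12 sls-1, 19 C47F8.9 group, 12 F07C6.5 group, 5 T11F9.15 group, 10 smy or 17 ungrouped genes. At these numbers, a count of 0 leaves upper limits of 24.2%, 16.8%, 24.2%, 43.4%, 27.8% and 18.4%. The groups are small and the intervals of all of them overlap.

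**Figure D1:**
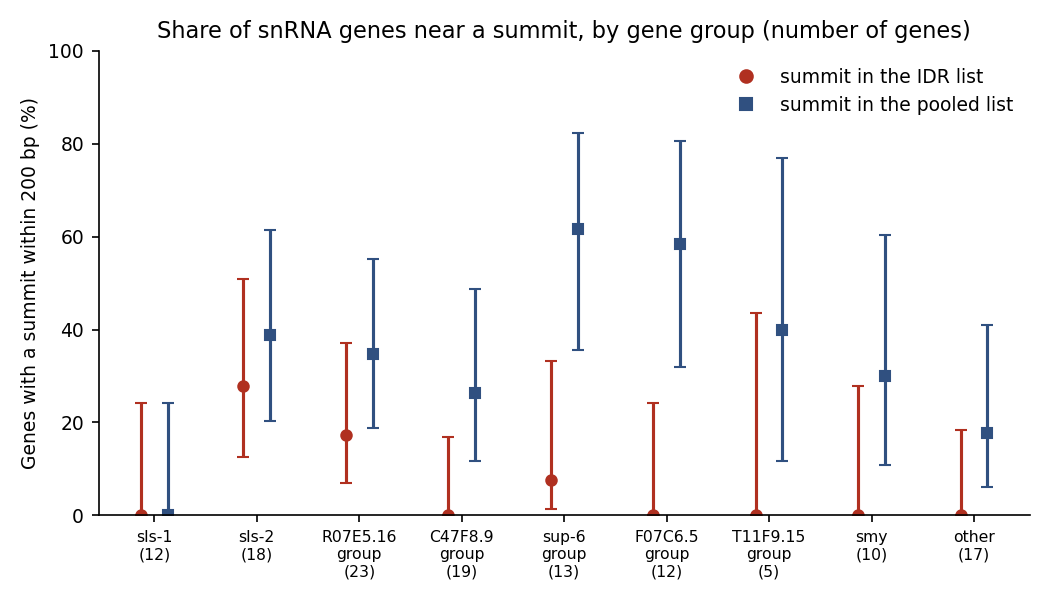
Percent of the genes in each group (number of genes in brackets) with a summit within 200 bp in the IDR list (circles) and in the pooled list (squares), with 95% Wilson intervals as bars. The sup-6 group (61.5%) and the F07C6.5 group (58.3%) have the highest pooled shares, while the sls-2 genes have the highest IDR share (27.8%).

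The order of the groups was different in the pooled list. The sup-6 group had 8 of 13 genes near a pooled summit (61.5%) and the F07C6.5 group 7 of 12 (58.3%), with median signals of 37.5 and 45.4. The sls-2 genes had 7 of 18 (38.9%) with a median signal of 131, and the R07E5.16 group had 8 of 23 (34.8%) with a median of 74.0. The C47F8.9 group had 5 of 19, the T11F9.15 group 2 of 5, the smy genes 3 of 10 and the ungrouped genes 3 of 17. The signal is the authors' value for each region, whose scale is not given in the sources used here, and its median over all 21094 pooled regions was 32.3. The 95% intervals of these shares overlapped (20.3 to 61.4% for sls-2 and 35.5 to 82.3% for the sup-6 group, for example), and the differences were not tested.

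**Figure D2:**
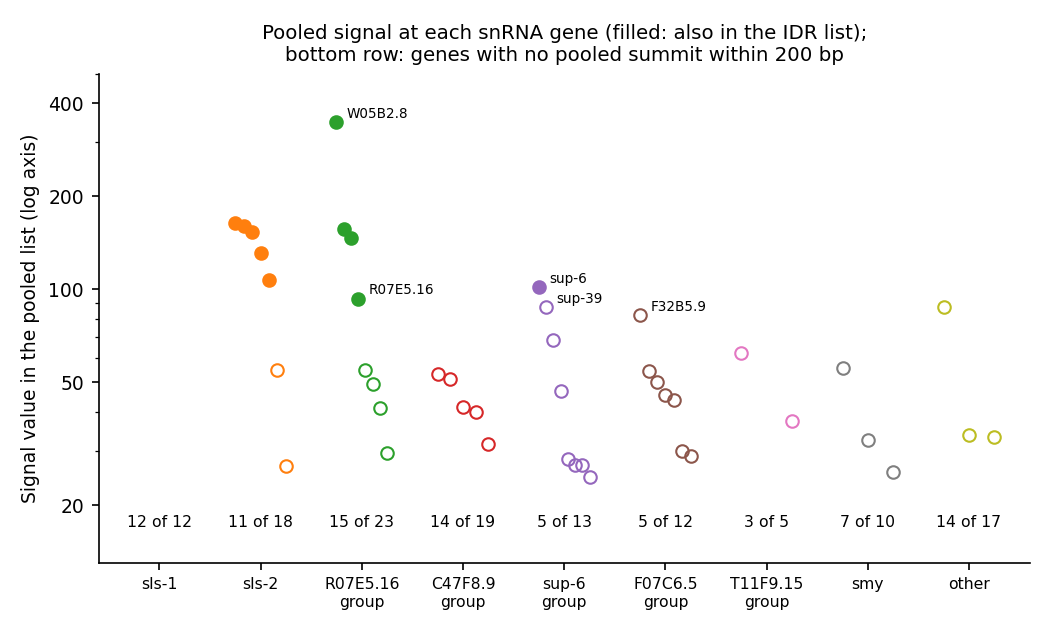
Pooled signal value (log axis) of the nearest summit for each snRNA gene, by group. Filled points are also in the IDR list, and the numbers at the bottom give the genes of each group with no pooled summit within 200 bp. W05B2.8 stands at 347, above all other members, and no sls-1 gene has a value.

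W05B2.8 was the strongest member. It lies at chrIII:10989679-10989780 on the plus strand, inside the dynein heavy chain gene dhc-4 and on its strand. Its IDR region ranked 55 of 519, with a signal of 347 and the summit 13 bp downstream of the 5′ end. In replicate 1 the signal was 178 (rank 43) and in replicate 2 it was 174 (rank 53), with summits at 29 bp and -21 bp. A second IDR region, with a signal of 212 (rank 133), had its summit 213 bp downstream of the 5′ end. W05B2.8 was thus close to equal in the replicates and covered by overlapping regions.

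The other IDR genes of the R07E5.16 group were F54D8.7, C28A5.7 and R07E5.16, all on chromosome III as W05B2.8 is. F54D8.7 (chrIII:5080798-5080898, minus strand) had a pooled signal of 156 (rank 216) with its summit at 3 bp, and replicate signals of 67.8 and 95.1. No other gene lay within 200 bp of that summit. C28A5.7 (chrIII:4426854-4426955, minus strand), in the gene C28A5.6, had a pooled signal of 147 (rank 237) with its summit at 119 bp, just past its end, and replicate signals of 77.9 and 68.8. A weaker IDR region at C28A5.7, with a signal of 92.0 (rank 487), had its summit at -88 bp. The noncoding RNA gene C28A5.9 lay 14 bp from the stronger summit and 88 bp from the weaker one. R07E5.16 itself (chrIII:4414185-4414286, plus strand) lies in mpc-1, which encodes a mitochondrial pyruvate carrier subunit. It had a pooled signal of 93.3 (rank 473) with its summit at 69 bp, and replicate signals of 52.4 (rank 394) and 37.5 (rank 1034). Of these 4 genes it was the weakest, and the only one outside the strongest 519 regions of a replicate. All 4 had TATATAA upstream.

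The R07E5.16 group also shows how far copies of the same RNA gene differed. The 102-base sequence of W05B2.8 occurs in 14 genes on 3 chromosomes, which have 14 different upstream sequences. Of these 14 copies, 3 had an IDR summit, 5 had a pooled summit with signals from 49.2 to 347, and 9 had none in any list. The 3 pairs of near-identical copies with the most different pooled signals all held W05B2.8. T08B6.62 (99.0% identical) had 29.4, Y17G9A.85 (99.0%) had 41.3 and Y9C9A.111 (100%) had 49.2, against 347. Their upstream 100 bp were 57%, 60% and 57% identical to that of W05B2.8. Genes of the same sequence thus had different signals, and their flanks differed too. Reads inside these genes cannot be told apart between copies: no 50-mer within the 4 IDR genes of the group occurs once in the genome. Within 100 bp of the 5′ end, 58.9 to 65.6% of 50-mers were unique at the 5 copies with a pooled summit and 30.5 to 63.6% at the 9 without. The lower values include 6 copies in 1 cluster on chromosome IV, K09B11.11 to K09B11.16, at 30.5 to 40.4%. Whether mappability set which copies were called was not tested.

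The TATATAA letters also divided the group. Of its 15 genes with TATATAA upstream, 4 had an IDR summit and 8 a pooled one, and of its 8 genes without it 0 had either. The median share of unique 50-mers was 60.3% with and 59.9% without these letters. This split was made after the values were seen.

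Among the spliced leader genes, sls-2.2 (chrII:5543598-5543707, plus strand) was strongest, with a pooled signal of 164 (rank 200). Its replicate signals were 78.9 and 84.2, and its summits fell at 134, 103 and 129 bp in the pooled and replicate lists, near or past the 3′ end of the gene. The noncoding RNA gene C17C3.23 lay 34 bp from the IDR summit. sls-2.1 (chrII:5844865-5844974, plus strand) had a pooled signal of 131 (rank 274), signals of 45.1 and 51.3 at the nearest replicate summits, and no other gene within 200 bp of its summit. The nearest summit was at -38 bp in the pooled and replicate 2 lists and at 134 bp in replicate 1, which also had a stronger one in the window, with a signal of 77.7 (rank 214). sls-2.8 (chrIII:12250465-12250575, plus strand) had a pooled signal of 107 (rank 371), a summit at 98 bp, and replicate signals of 45.1 and 62.9. Its summit lay inside the noncoding RNA gene Y75B8A.49 and 97 bp from the protein-coding gene Y75B8A.23.

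The remaining sls-2 genes with an IDR summit were sls-2.4 and sls-2.9, both on the plus strand of chromosome I. sls-2.4 (4172206 to 4172315) had a pooled signal of 161 (rank 209), replicate signals of 69.4 and 93.2, and a summit at 86 bp that also lay inside the noncoding RNA gene R12E2.18. sls-2.9 (13297877 to 13297985) had a pooled signal of 154 (rank 221) and replicate signals of 88.7 and 65.2. Its summits were at -127, -109 and -124 bp, farther upstream than at any other IDR member. The pooled summit of sls-2.9 was 5 bp from the tRNA gene M01E5.t1, and 4 bp from the noncoding RNA gene M01E5.8. It was the only one of the 10 genes whose summit had a tRNA or snoRNA gene within 200 bp, and without members near such genes the count was 9 of 128. Whether the tRNA gene accounts for the sls-2.9 region was not tested.

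The leaders of these 5 genes were compared with the rest of the family. Of the 4 sls-2 genes whose leader equals that of sls-2.2, 3 had an IDR summit, with signals from 131 to 164. Of the 14 with substitutions in the leader, 2 had an IDR summit and 4 a pooled one. The exception among the 4 was sls-2.3, which lies beside sls-2.2 and 432 bp from the nearest IDR summit. None of the 7 sls-2 genes inside a protein-coding gene had an IDR summit, and 5 of the 11 outside had one. These counts are small, and the splits were made after the values were seen. Of the other sls-2 genes, sls-2.14 had a pooled signal of 54.8 (rank 1963) and replicate signals of 35.8 and 18.7. sls-2.13 had a pooled signal of 26.8 (rank 16716) and a replicate 1 signal of 15.9 (18.2 at a stronger summit in the window), with no summit in replicate 2. sls-2.5, sls-2.16 and sls-2.18, which lie together in the glutamate receptor gene glr-2, each had a weak summit in 1 replicate only, with signals of 18.7, 17.8 and 16.6. The remaining 8 sls-2 genes had no summit in any list.

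The sls-1 genes stood apart as a family with no summit. They lie in an array of 13.954 kb at chrV:17118154-17132107, with a median spacing of 976 bp between gene starts, among 13 ribosomal RNA genes. None of the 4 lists had a summit within the array, although chromosome V carried 0.170 pooled summits per kb. The nearest pooled summit was 5501 bp away and the nearest IDR summit 525903 bp away. Replicate 1 had a weak summit 540 bp from the array, with a signal of 15.7 (rank 15768), and replicate 2 had none closer than 4777 bp. In the array, 0 to 19.9% of the 50-mers around a gene's 5′ end occurred once in the genome, with a median of 0. How reads that map to several places were treated is not given in the sources used here, so unbound genes and genes whose reads were set aside cannot be told apart at sls-1.

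sup-6 was the only IDR member outside the sls-2 and R07E5.16 families. It lies at chrII:12944803-12944967 on the minus strand, inside F58G1.7 and on its strand. Its pooled signal was 102 (rank 401) with the summit at 1 bp, and its replicate signals were 50.1 (rank 427) and 53.7 (rank 426). The replicate 2 summit was at -4 bp, while that of replicate 1 was at 174 bp. The noncoding RNA genes F58G1.11 and F58G1.12 lay 18 and 19 bp from the pooled summit.

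Below the limit of the IDR list, whose lowest signal was 89.4, the next members were sup-39 and mir-1831. They share 1 pooled summit with a signal of 87.8 (rank 532) because mir-1831, a gene of 22 bases annotated as snRNA, lies within sup-39. Its replicate signals were 41.4 and 47.9. F32B5.9, the strongest of the F07C6.5 group, followed with 82.5 (rank 611) and replicate signals of 47.1 and 33.3. T08G5.11 of the sup-6 group had 68.7, with 44.0 in replicate 1 and 23.4 in replicate 2. C52E4.8, the strongest of the T11F9.15 group, had 62.0, with 21.4 and 14.0 at the nearest replicate summits. Replicate 2 had a stronger summit there, with a signal of 38.0 (rank 986). The protein-coding 5′ end nearest to C52E4.8, 395 bp away, was that of snr-4, which encodes a core Sm protein. These members had signals above the pooled median but were not in the IDR list.

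Outside the sls-2 genes, the next 4 were close to each other. smy-1 had a pooled signal of 55.6 with a summit 179 bp beyond the gene, near the 200 bp limit. K09C6.12, a copy identical to W05B2.8, had 54.8 and no summit in replicate 1. F07C6.5 had 54.2, with 26.1 and 24.1 in the replicates. F08G2.11, the strongest of the C47F8.9 group, had 53.3, with 36.3 and 27.9, and a stronger pooled summit of 66.9 in the window. F38E11.10 of the F07C6.5 group had its nearest pooled summit at rank 2631 and a stronger one in the window, with a signal of 73.6 (rank 825). At the limit itself, T27E4.22 was just inside with a pooled summit at 181 bp (signal 27.0). sls-2.3 was just outside at 212 bp (signal 53.7), and F38E11.11 followed at 266 bp (signal 42.0). In the IDR list the members farthest inside the limit were sls-2.9 at 127 bp and sls-2.1 at 38 bp, and those nearest outside were sls-2.3 at 432 bp and F08G2.9 at 1401 bp.

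The position of the summit relative to the gene varied. For the 10 IDR members the nearest summit lay at a median of 41 bp past the 5′ end (quartiles 1.5 and 95), within a range of -127 to 134 bp. It was upstream of 2 genes, inside 6 and downstream of 2. For the 43 members of the pooled list the median was 38 bp (quartiles -28.5 and 126.5), with 14 upstream, 17 inside and 12 downstream. In the replicate lists, the summits of the 31 members found in both lay a median of 56 bp apart (1 to 539 bp), and 15 were within 50 bp of each other. At the sls-2 genes 5 of 6 were within 50 bp, with a median of 31.5 bp, and at the F07C6.5 group 1 of 4, with a median of 144 bp. At many genes the replicate summits were thus as far apart as parts of the gene are, so the lists do not place the signal at the promoter or in the body of a single gene.

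**Figure D3:**
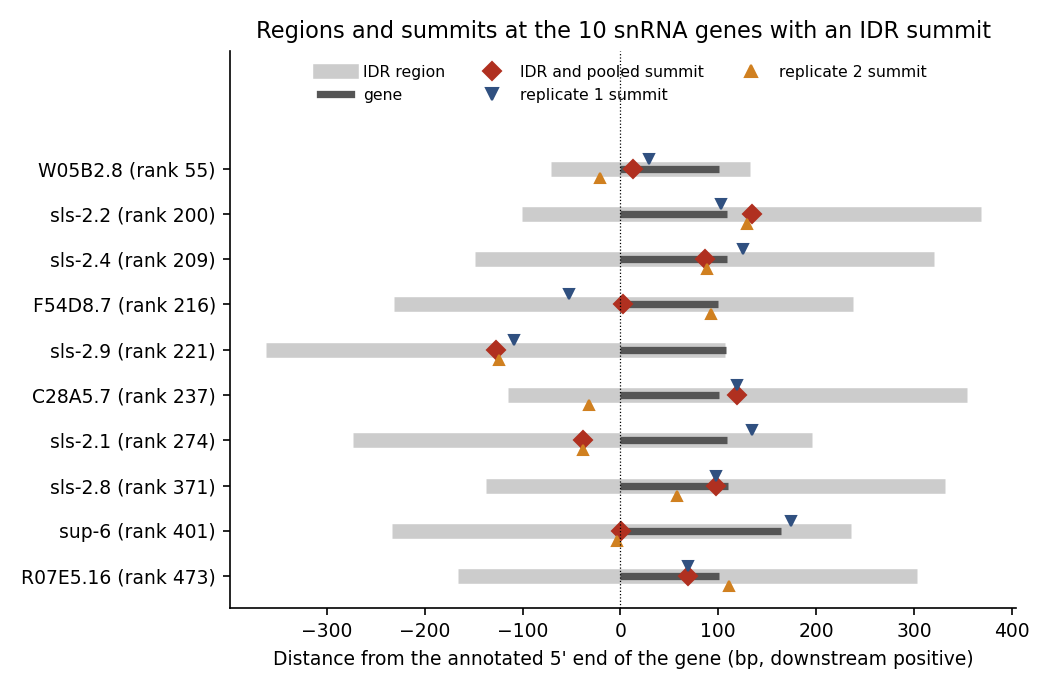
Distance in bp from the annotated 5′ end, in the direction of transcription, for the 10 snRNA genes with an IDR summit. Grey bars are IDR regions, dark bars genes, diamonds the IDR and pooled summits, and triangles the summits of each replicate; the summits of sls-2.9 lie 109 to 127 bp upstream, and most others lie in or near the gene.

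The IDR list rests on how alike the replicates rank regions. Likeness of the replicates at its members is thus in part set by that choice. All 10 IDR members had the same rank in the IDR and pooled lists. No other member had a pooled signal as high as the lowest in the IDR list, 89.4. Among the members the list was thus also a cut by pooled signal, and the 2 cannot be told apart. The replicates gave the IDR members signals of similar size. These ran from 45.1 to 178 in replicate 1 (median 68.6) and from 37.5 to 174 in replicate 2 (median 67.0). The ratio of replicate 2 to replicate 1 had a median of 1.07 (0.716 to 1.40), and replicate 2 was higher at 6 of 10 genes. For the other 21 members with a summit in both lists, the signals ran from 14.8 to 47.1 (median 21.9) and from 13.1 to 47.9 (median 23.4). Their ratio had a median of 0.902 and a wider range, 0.364 to 2.00. Each ratio pairs the nearest summit of each list, and over all 31 members these lay a median of 56 bp and up to 539 bp apart. Some ratios may thus compare different summits, which was not tested. Counting any summit in the window, not the nearest alone, the strongest 519 regions of replicate 1 held 11 members, those of replicate 2 held 9, and 8 were in both. All of these 8 were IDR members, which the choice of regions for the IDR list favours. Shares of all nuclear genes near the strongest 519 regions of each replicate were not computed. F32B5.9 and F38E11.10, both of the F07C6.5 group, were found in that part of replicate 1 alone and were not IDR members. By the nearest summit, 9 members ranked among the strongest 519 in each replicate, F38E11.10 was not among them, and 7 IDR members did so in both.

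**Figure D4:**
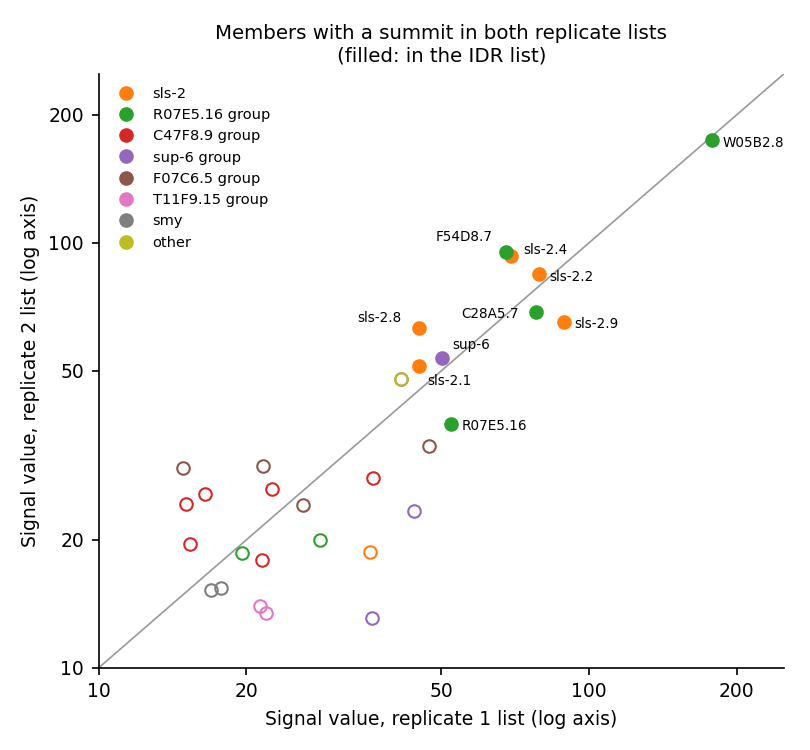
Signal value of the nearest summit in replicate 1 (x axis) and replicate 2 (y axis), both on log axes, for the 31 members with a summit in both lists; the line marks equal values and filled points are in the IDR list. The 10 IDR genes lie close to the line, with W05B2.8 highest in both, and the weaker members scatter more widely. The IDR list rests on how alike the replicates rank regions and here also parts the members by pooled signal, so this closeness is not independent of that choice. The paired summits do not always lie at the same position.

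The surroundings of the members were compared across the lists. A noncoding gene other than an snRNA lay within 200 bp of 6 of 10 IDR members, 16 of 33 members with a pooled summit alone, and 37 of 86 with no pooled summit. Of the IDR members 4 of 10 lay in a protein-coding gene, against 18 of 33 and 43 of 86. The nearest protein-coding 5′ end was a median of 1046, 1151 and 1742 bp away. The overlapping noncoding genes mean that a region at an snRNA gene cannot always be given to that gene alone.

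The share of unique sequence near the 5′ ends differed strongly between families. Its median was 0% at sls-1, 98.7% at sls-2, 60.3% in the R07E5.16 group, 44.4% in the C47F8.9 group, 66.2% in the sup-6 group, 73.2% in the F07C6.5 group and 100% at the smy genes. It was 77.5% at tRNA genes and 100% at snoRNA genes. The IDR members had a median of 71.5% (58.9 to 100%), those with a pooled summit alone 65.6%, and those with none 65.2%. All 10 IDR genes and 37 of the 43 pooled ones were among the 94 members with at least 50% unique 50-mers. Of the 35 members below that share, none had an IDR summit and 6 had a pooled one. The smy genes had at least 97.4% unique 50-mers, and 7 of these 10 genes had no pooled summit. Their pooled share of 30% was close to the 33.3% of all members and the 25.6% of all nuclear genes. Whether unique sequence set which genes were called was not tested.

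**Figure D5:**
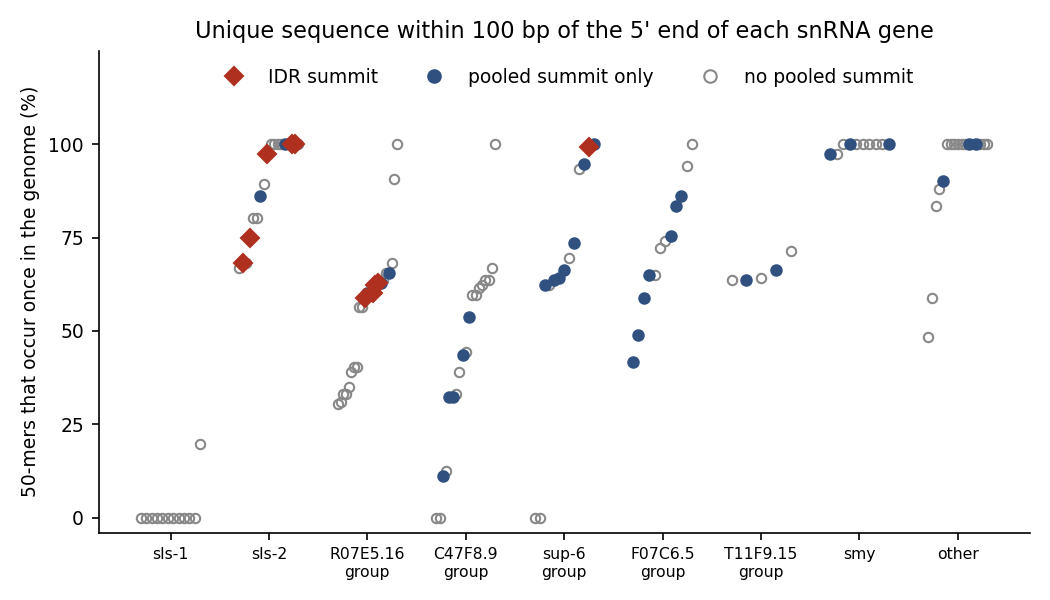
Percent of 50-mers within 100 bp of the 5′ end that occur once in the genome, for each snRNA gene by group. Diamonds have an IDR summit, filled circles a pooled summit alone and open circles no pooled summit; no gene below 58.9% has an IDR summit, and the sls-1 genes lie at 0 to 19.9%.

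The shared upstream letters were counted at the IDR members and at the rest. CGGAACCC was upstream of 4 of 10 IDR members (W05B2.8, F54D8.7, sls-2.8 and sup-6) and of 27 of the 119 others. CGGTACAC was upstream of 3 (sls-2.2, sls-2.4 and sls-2.9) and of 18 others, and 13 of its 21 genes were in the C47F8.9 group, where no IDR summit was found. sls-2.1, R07E5.16 and C28A5.7 had neither. TATATAA was upstream of 4 IDR members, all of the R07E5.16 group, and of 14 of the 119 others. ATGTCTG, on the gene's strand, was upstream of 6 members (4.65%, against 0.520% of all nuclear genes). These were 4 IDR members (W05B2.8, F54D8.7, R07E5.16 and sls-2.1) and 2 of the 119 others (sls-2.3 and M163.13). ATGTCTG was chosen after the upstream sequences of IDR members were seen, so its count at them is a description of that choice. Other motifs, searched on both strands of the same 100 bp, were also counted. AGGTCA, a half-site known for nuclear hormone receptors, was upstream of 7 members (5.43%, against 2.37% of all nuclear genes) and of no IDR member. AGTGCA was upstream of 2 (1.55%, against 3.04%), GAGAGA of 10 (7.75%, against 6.75%) and GTTCGA of 3 (2.33%, against 2.97%), and none of these was upstream of an IDR member. At shares this low, finding none among 10 IDR members says little. The IDR summits lay inside 6 genes and downstream of 2, so outside these 100 bp, and the sequence at the summits was not searched. TATAAA was upstream of 21 members (16.3%, against 17.5%) and TATATA, which overlaps TATATAA, of 20 (15.5%, against 5.07%).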

How the data were processed

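ChIP-seq of 2 biological replicates, numbered so in the labels, was analysed from the ce11 region lists; the ce10 lists were not used here. Per the file headers and file listing, the authors deposited 1 list of candidate regions per replicate, made from its alignment and a control, 1 from the pooled replicates, and the IDR list made from these. Each deposited region has a signal value, a −log10 q value and a summit position in bp from its start, all set by the authors' peak caller. The aligner is not given in the sources used here, nor is the caller or its handling of reads with several matches. No read total entered, so depth is unknown.

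Genes came from Ensembl release 115 (WBcel235), and names from RefSeq by gene identifier (129 of 129 matched), because Ensembl gives 1 name to as many as 14 members. For each gene the nearest summit within 200 bp was taken from each list, with its rank by signal. Offsets are positive downstream of the 5′ end. Groups joined genes of at least 80% identity, and unique sequence was counted as 50-mers that occur once in the genome. Signals of different lists may differ in scale and were set side by side without a test. Shares have 95% Wilson intervals, for counting error alone. The lists hold no measure of expression, and no test was run. Named were all IDR members, the sls-2 genes with a pooled summit, the leading gene of each group, the 10 next members by pooled signal, those nearest the limit, and the 3 most different copy pairs; other names were chosen after their values were seen. The members and lists were chosen with earlier results of these data known. Finding the nearest summit and its offset was tested with summits planted at known positions, and the other steps were not tested in this way. Python 3.11.15, numpy 2.4.6, pandas 2.3.3, scipy 1.17.1, matplotlib 3.10.9 and edlib 1.3.9.post1 were used. Some gene sequences are not reported here.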

Additional observations from a re-analysis of the deposited data

How the results depend on the processing

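Of 45 values under alternatives, 40 kept within 1.5 times the count or, for offsets, within a set limit of the main value. That limit was the standard deviation of the medians from each replicate alone, 51.6 bp for the IDR offset and 8.13 bp for the pooled one. The single-replicate offsets were thus judged against a limit made from themselves. By it, an IDR median of -4 bp counted as kept against 41 bp. In the 259 strongest IDR regions the counts fell to 6 of 129 snRNA genes, 3 of them spliced leader genes and 3 others. The share of all nuclear genes near these 259 regions was not computed. The median pooled offset was 72 bp with a 100 bp window and 53.5 bp with a 500 bp window, against 38 bp; the cause was not tested. With 1 replicate left out, the 519 strongest regions of the other stood in for the IDR list, and the count ranged from 9 to 11, the pooled count from 40 to 42, the spliced leader count from 4 to 5 and that of the others from 4 to 7. The median offset in those regions then ranged from -4 to 69 bp and the pooled one from 30.5 to 42 bp. Counted as loci within 1 kb, 10 of 104 had an IDR summit. Alternatives chosen after seeing the data left out members near tRNA or snoRNA genes (9 of 128, and 4 of 29 spliced leader genes) or mir-1831 (10 of 128). No paired analysis was possible because there was 1 group and no test. Depth is unknown, the signal has no stated scale, and repeated sequence limits the calls at sls-1 and at identical copies.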

Other observations

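The snRNA genes with an IDR summit were unevenly spread over the chromosomes. Of the 45 members on chromosomes I, II and III, 10 had one, and of the 84 on chromosomes IV, V and X, none had. Over tRNA and snoRNA genes together the same shares were 25.6% of 386 and 27.1% of 572, and over all nuclear genes 2.90% and 1.34%. The all-gene share was lowest on chromosome IV (0.629% of 19704 genes) and highest on chromosome X (3.67%), where only 3 members lie. On chromosome V it was 1.35%. Chromosome IV holds the most genes and so weighs most in the 1.34%. Shares by chromosome without the piRNA genes, of which 0.0195% had an IDR summit, were not computed. The IDR list held 243 regions on the first 3 chromosomes and 259 on the others. The families are also unevenly spread: 12 of the 40 members on chromosome V are sls-1 genes. Within the R07E5.16 group, 4 of 7 genes on chromosome III had an IDR summit, and 0 of 13 on chromosome IV and 0 of 2 on chromosome V. Pooled summits were found at 12 of 41 members on chromosome IV and 11 of 40 on chromosome V, with signals up to 55.6 and 68.7, below the lowest IDR signal of 89.4. This division was noticed in the values and was not tested.

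CGGAACCC, the letters most often shared upstream of the snRNA genes, was also upstream of 20 of 346 snoRNA genes (5.78%) and of 0 of 612 tRNA genes. An IDR summit was near 4 of the 31 snRNA genes with these letters (12.9%, interval 5.13 to 28.9) and 6 of the 98 without (6.12%). Among snoRNA genes it was near 0 of 20 with the letters (upper limit 16.1%) and 52 of 326 without. Pooled summits were near 16 of 31 and 27 of 98 snRNA genes (51.6% and 27.6%) and near 12 of 20 and 124 of 326 snoRNA genes (60.0% and 38.0%). Taken over all genes of each kind, the pooled share was thus higher with the letters. Within snRNA families it varied. It was 4 of 8 with and 4 of 5 without in the sup-6 group, and 2 of 5 and 5 of 13 at sls-2. In the F07C6.5 group it was 4 of 6 and 3 of 6, and at the smy genes 2 of 5 and 1 of 5. No sls-1 or C47F8.9 group gene had the letters. The IDR share was higher with the letters among the snRNA genes and lower among the snoRNA genes, with few genes in each case. At sls-2 it was 1 of 5 with and 4 of 13 without. None of these differences was tested.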
